A study of Mus musculus with 54 samples.

Results

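Open chromatin in embryonic stem cells lies at 2 kinds of place. Promoters rich in CpG dinucleotides are open in nearly every cell type, whether or not the gene is strongly transcribed, and serve housekeeping genes and many developmental genes. Enhancers lie away from promoters, are opened by the transcription factors of the cell, and differ between cell types. The 486 peaks described here lie in the middle of mouse chromosome 14, from 58000000 to 97707728 on build GRCm38, out of 113737 peaks in all. The stretch was chosen by its measured values, since distal peaks were sparse there, and its members are all peaks whose centre lies between these limits. Of the 486 peaks, 302 were distal and 184 were proximal, where proximal means centred at most 1 kb from the transcription start site (TSS) of some GENCODE transcript. Distal peaks stood at 7.61 per Mb in the stretch, against 37.4 per Mb in the rest of the autosomes, and proximal peaks at 4.63 against 9.81. Promoters rich in CpG had a peak in 93 of 99 genes (93.9%), against 99.1% in the rest, and 5 of the 6 without a peak had no unique sequence around the TSS.

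The peaks were measured by ATAC-seq, in which the Tn5 transposase cuts and tags accessible DNA, in mouse ES cells of the line ZHBTc4. In this line a Tet-Off promoter drives Pou5f1, which encodes OCT4, so doxycycline (dox) shuts off untagged OCT4. All 54 samples in 24 groups had dox. Their cells expressed both mCherry-OCT4-AID, a tagged OCT4 degraded when the auxin IAA is given, and the cell cycle reporter YPet-MD. In 22 samples, cells with 26 hr of dox had 2 hr of 500 nM IAA or none and were sorted into EG1, LG1, S and SG2 phases, in 16 samples cells with 31 hr of dox had 2.5 hr of IAA or none followed by 4.5 hr of washout and the same sort, and in 16 samples unsorted cells with 34 hr of dox had no IAA or IAA for 30 min or for 1, 2, 3, 4, 6 or 10 hr. All of this comes from a single engineered stem cell line, and no group was without dox. The deposited list merged the peaks of these samples and holds positions only, so a peak has no value per sample or per group, there is no replicate error and no test between conditions could be made. The genes Pou5f1, Sox2, Nanog, Esrrb and Zfp42, which mark mouse ES cells, all had a peak at their TSS elsewhere in the list (5 of 5), beside 72.4% of all protein-coding genes on the autosomes outside the stretch.

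Since the stretch is 1 region of 1 list, its values are set beside the rest of the autosomes (111255 peaks, of which 88130 were distal) and beside the range over 48 other autosomal stretches of the same length of 39.7 Mb that do not overlap. Intervals in parentheses are 95% confidence intervals, by the Wilson method for shares, and cover counting error only. The depth of the libraries, and the number of reads in the stretch, are unknown from these positions.

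Promoter sequences from the stretch show the contrast that runs through its genes. The sequences below are the 250 bases before the RefSeq start of 6 genes on GRCm38, read 5′ to 3′ on the strand of the gene, with each CpG in capitals, and none of them overlaps an annotated exon. The first 4 belong to genes with a promoter peak and the last pair to genes without one.
Pcdh9 (chr14:93890680-93890929, minus strand): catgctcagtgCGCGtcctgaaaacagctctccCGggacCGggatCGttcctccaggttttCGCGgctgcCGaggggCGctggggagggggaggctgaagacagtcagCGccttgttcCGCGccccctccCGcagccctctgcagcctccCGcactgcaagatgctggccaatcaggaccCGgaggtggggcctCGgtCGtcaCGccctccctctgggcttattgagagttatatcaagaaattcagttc
Pcdh17 (chr14:84443313-84443562, plus strand): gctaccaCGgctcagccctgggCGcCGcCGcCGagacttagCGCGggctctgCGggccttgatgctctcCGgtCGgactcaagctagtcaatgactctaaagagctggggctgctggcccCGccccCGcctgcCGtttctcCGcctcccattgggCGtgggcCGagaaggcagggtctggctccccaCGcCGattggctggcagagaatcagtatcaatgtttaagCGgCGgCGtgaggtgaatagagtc
Zc3h13 (chr14:75284123-75284372, plus strand): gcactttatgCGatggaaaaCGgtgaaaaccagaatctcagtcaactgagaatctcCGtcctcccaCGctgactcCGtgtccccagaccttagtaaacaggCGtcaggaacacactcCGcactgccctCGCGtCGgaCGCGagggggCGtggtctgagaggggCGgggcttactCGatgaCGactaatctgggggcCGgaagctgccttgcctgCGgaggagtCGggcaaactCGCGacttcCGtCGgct
Pcdh20 (chr14:88471397-88471646, minus strand): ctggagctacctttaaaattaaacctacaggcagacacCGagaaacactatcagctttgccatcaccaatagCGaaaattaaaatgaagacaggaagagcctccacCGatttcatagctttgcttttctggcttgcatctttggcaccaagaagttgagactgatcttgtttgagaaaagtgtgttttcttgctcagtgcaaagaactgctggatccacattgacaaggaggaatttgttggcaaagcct
Cpb2 (chr14:75242037-75242286, plus strand): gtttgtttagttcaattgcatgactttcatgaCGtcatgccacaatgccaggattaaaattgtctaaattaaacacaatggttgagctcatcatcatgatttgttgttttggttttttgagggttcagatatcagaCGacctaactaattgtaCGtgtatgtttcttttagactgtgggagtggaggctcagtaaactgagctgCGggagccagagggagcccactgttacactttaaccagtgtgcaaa
Epsti1 (chr14:77903989-77904238, plus strand): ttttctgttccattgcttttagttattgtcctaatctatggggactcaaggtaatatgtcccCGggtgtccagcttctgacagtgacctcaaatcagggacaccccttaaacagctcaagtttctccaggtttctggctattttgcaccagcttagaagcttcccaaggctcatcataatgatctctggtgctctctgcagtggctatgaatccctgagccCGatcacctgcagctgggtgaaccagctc

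Pcdh9 and Pcdh17 encode protocadherins, cell adhesion proteins of the nervous system, and had 18 and 21 CpGs in these bases. Zc3h13, which encodes a subunit of the complex that methylates adenosine in mRNA, had 23. Cpb2 encodes a carboxypeptidase made in the liver and had 4, and its gene ends less than 1 kb before Zc3h13 starts. Epsti1, an interferon-responsive gene, had 2. Pcdh20 was the exception among those shown, with a peak and 3 CpGs. At least 18 CpGs were found in 22.2% of the 25748 autosomal RefSeq promoters, and at least 2 in 80.9%. RefSeq promoters were matched for 88 of the 197 protein-coding genes that start in the stretch. The median number of CpGs was 16 in the 59 matched genes with a promoter peak and 3 in the 29 without.

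Distal peaks of the stretch included regions with a match to the composite OCT4::SOX2 motif, which the 2 factors bind side by side in ES cells. The 3 such peaks with the match nearest to their centre are shown by 150 bases around it on the plus strand of GRCm38, with the match in capitals. Up to 2 mismatches to the motif were allowed, and each of these 3 matches holds 2. The fourth sequence comes from the last 5 Mb of the stretch, where a distal peak held a match to the motif of CTCF, a factor that shapes chromatin loops, again in capitals.
Peak in an intron, nearest gene Dock5 (chr14:67760733-67760882, plus strand): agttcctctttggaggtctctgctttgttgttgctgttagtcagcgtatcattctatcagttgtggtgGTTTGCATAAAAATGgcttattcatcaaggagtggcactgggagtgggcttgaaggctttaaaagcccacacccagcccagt
Intergenic peak, nearest gene Tnfrsf19 (chr14:60957769-60957918, plus strand): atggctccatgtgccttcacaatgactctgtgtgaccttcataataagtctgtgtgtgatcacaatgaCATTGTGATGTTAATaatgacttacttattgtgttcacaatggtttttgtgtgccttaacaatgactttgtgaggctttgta
Intergenic peak, nearest gene Tdrd3 (chr14:87315167-87315316, plus strand): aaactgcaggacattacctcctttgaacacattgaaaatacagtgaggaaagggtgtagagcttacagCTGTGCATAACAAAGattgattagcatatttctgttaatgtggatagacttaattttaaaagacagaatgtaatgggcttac
Intergenic peak, nearest gene 4921530L21Rik (chr14:95833646-95833795, plus strand): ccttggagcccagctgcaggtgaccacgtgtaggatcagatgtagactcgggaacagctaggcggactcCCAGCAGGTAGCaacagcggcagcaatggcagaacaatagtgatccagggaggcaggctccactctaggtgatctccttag

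Distal peaks were sparse in most of the stretch, with the bin around Tsc22d1, described further on, as an exception. Their density of 7.61 per Mb was below that of all 48 stretches of the same length, which ran from 18.5 to 50.2 with a median of 33.3. Proximal peaks stood at 4.63 per Mb against 9.81 in the rest of the autosomes, below 46 of the 48 stretches and above the other two. Protein-coding genes were also fewer, with 4.96 starts per Mb against 8.75. The density is what the stretch was selected on and is given as a description. The last peak before it was centred 1067 bp outside the lower limit, and the first inside was a distal peak of 505 bp at chr14:58034476-58034980. At the upper limit, the first peak outside was distal and centred 143 bp beyond it, whereas the last peak inside, at the promoter of Klhl1, was centred 1189349 bp before it. The 10 Mb before the stretch held 28.1 distal peaks per Mb, the first 10 Mb inside 10.2, the last 10 Mb inside 2.80, and the 10 Mb after it 98.3.

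**Figure D1:**
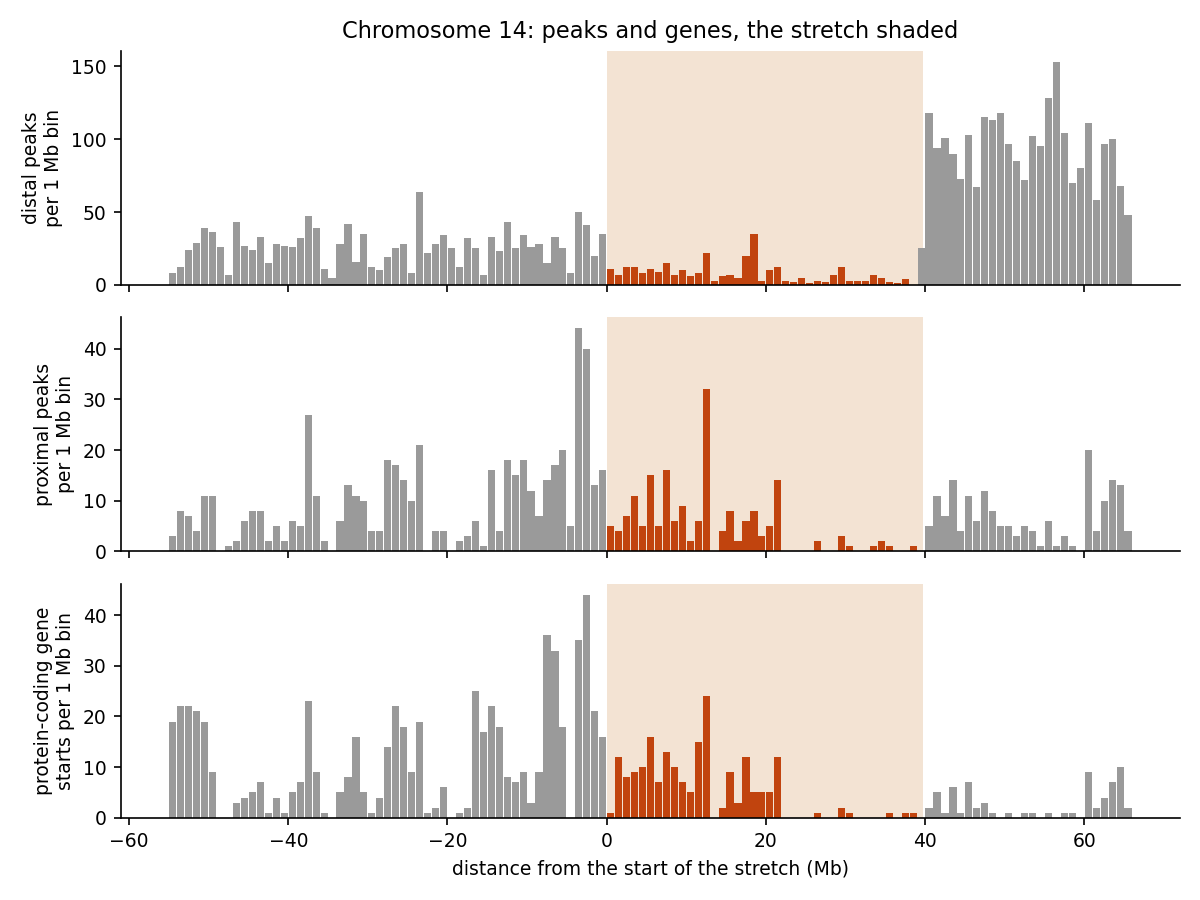
Distal peaks, proximal peaks and protein-coding gene starts in bins of 1 Mb along chromosome 14, by distance in Mb from the start of the stretch, which is shaded and drawn in orange. Distal peaks fall at the start of the shaded area, thin out toward its end and rise to 98.3 per Mb in the 10 Mb after it.

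The stretch divides into a part with genes and a part almost without. In successive windows of 5 Mb the number of protein-coding genes was 40, 53, 46, 34, 17, 3 and 1, with 3 in the last 4.71 Mb. The number of distal peaks in the same windows was 50, 52, 45, 70, 32, 25, 21 and 7, and that of proximal peaks 32, 51, 44, 27, 19, 5, 4 and 2. The GC content of the windows fell from 45.2% in the second to 36.3% in the last. The fourth window held the most distal peaks, and within it the 1 Mb bin that starts at 76 Mb, around Tsc22d1, held 35 of them. Tsc22d1, a gene induced by TGF-beta, had 11 distal peaks within 50 kb of its TSSs, more than any other gene of the stretch, and Tpt1, which encodes the abundant translationally controlled tumour protein, came next with 8.

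GC content and gene number differ along chromosomes, so each of the 39 bins of 1 Mb was set beside the other autosomal bins whose GC lay within 1 percentage point and whose number of gene starts differed by at most 1. There were 17 to 236 such bins for each bin of the stretch. The stretch held 302 distal peaks where the mean of the like bins summed to 1314, a ratio of 0.230 (0.205 to 0.257). All 39 bins lay below the mean of their like bins. For proximal peaks the numbers were 184 and 274, a ratio of 0.672 (0.578 to 0.776), and 34 of 39 bins lay below. Over the 5 Mb windows the distal ratio ran from 0.078 in the last to 0.356 in the fourth. Since the stretch was selected on sparse distal peaks, the low distal ratio is part of the choice and is given as a description. So is a distal ratio below the proximal one. The bin around Tsc22d1 came closest to its like bins, at a percentile of 38.6, against a median percentile of 2.35 over the 39 bins.

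**Figure D2:**
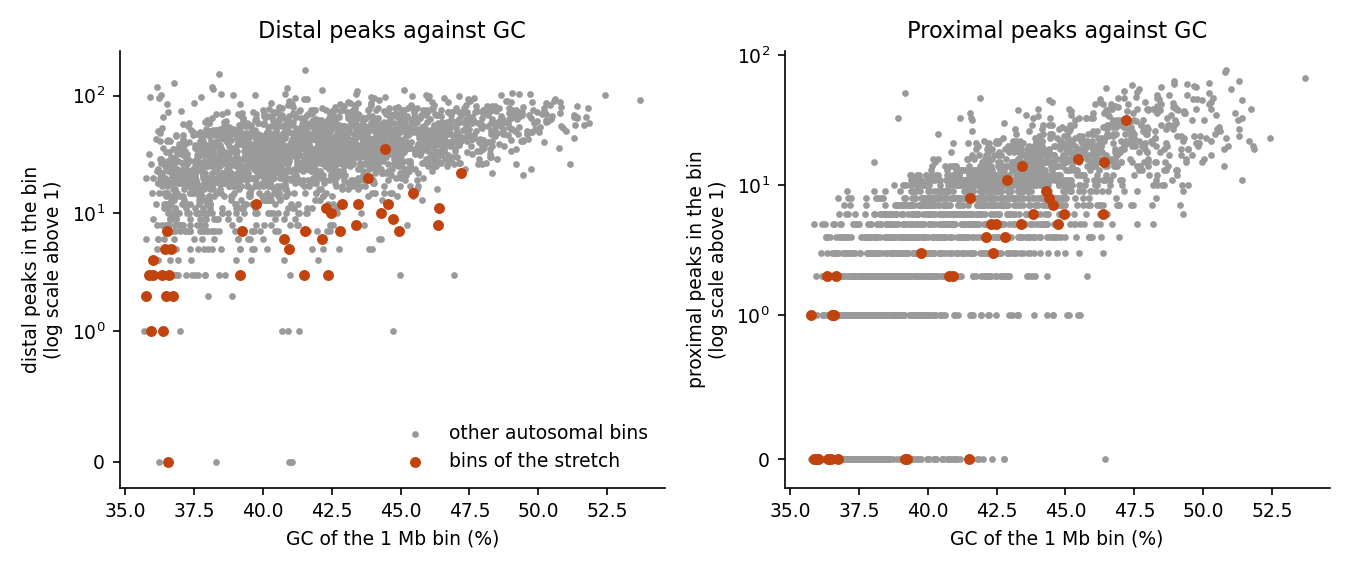
Number of distal (left) and proximal (right) peaks in autosomal bins of 1 Mb against the GC content of the bin in percent, with bins of the stretch in orange, other bins in grey, and a log scale above 1. Most orange points, at GC contents from 35.8% to 47.2%, lie along the lower edge of the grey cloud for distal peaks, except the bin around Tsc22d1 with 35, and they lie further within it for proximal peaks.

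Between neighbouring peaks the median interval was 22.2 kb, against 9.0 kb in the rest of the autosomes and 6.42 to 16.8 kb in the same-length stretches. Intervals above 500 kb made up 16 of 485 (3.30%) in the stretch and 65 of 111235 (0.0584%) elsewhere. This wide spacing follows from the low density that the choice used. The longest, 1254 kb at chr14:82629622-83883974, held no start of a protein-coding gene, and Pcdh17 was the nearest gene on both sides. The next, 1239 kb at chr14:71267369-72506486, ran from the side of Gfra2, which encodes a receptor for neurturin, to that of Gm9195, whose start it held. The third, 1123 kb at chr14:73609244-74731777, lay between Sucla2, an enzyme subunit of the citric acid cycle, and Esd, an esterase, and held the start of Htr2a, a serotonin receptor gene, and that of Gm21750.

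Of the 197 protein-coding genes that start in the stretch, 134 had a promoter peak, 68.0% (61.2 to 74.1), against 72.4% of 20610 genes in the rest of the autosomes. This difference was small beside the spread among same-length stretches, whose shares ran from 45.2% to 90.7% with a median of 78.1%, and 13 of the 48 lay lower. Proximal peaks made up 37.9% (33.7 to 42.3) of the peaks in the stretch, against 20.8% in the rest and 13.0% to 35.0% in the same-length stretches. What surrounded the open promoters differed more. Genes with a promoter peak had a median of 2 distal peaks within 50 kb of their TSSs, against 5 in the rest and 3 to 8 in the same-length stretches. No distal peak lay within 50 kb for 36 of the 134 (26.9%), against 2.96% elsewhere and at most 11.3% in any same-length stretch. These counts, like the high proximal share, follow from the density that the choice used.

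**Figure D3:**
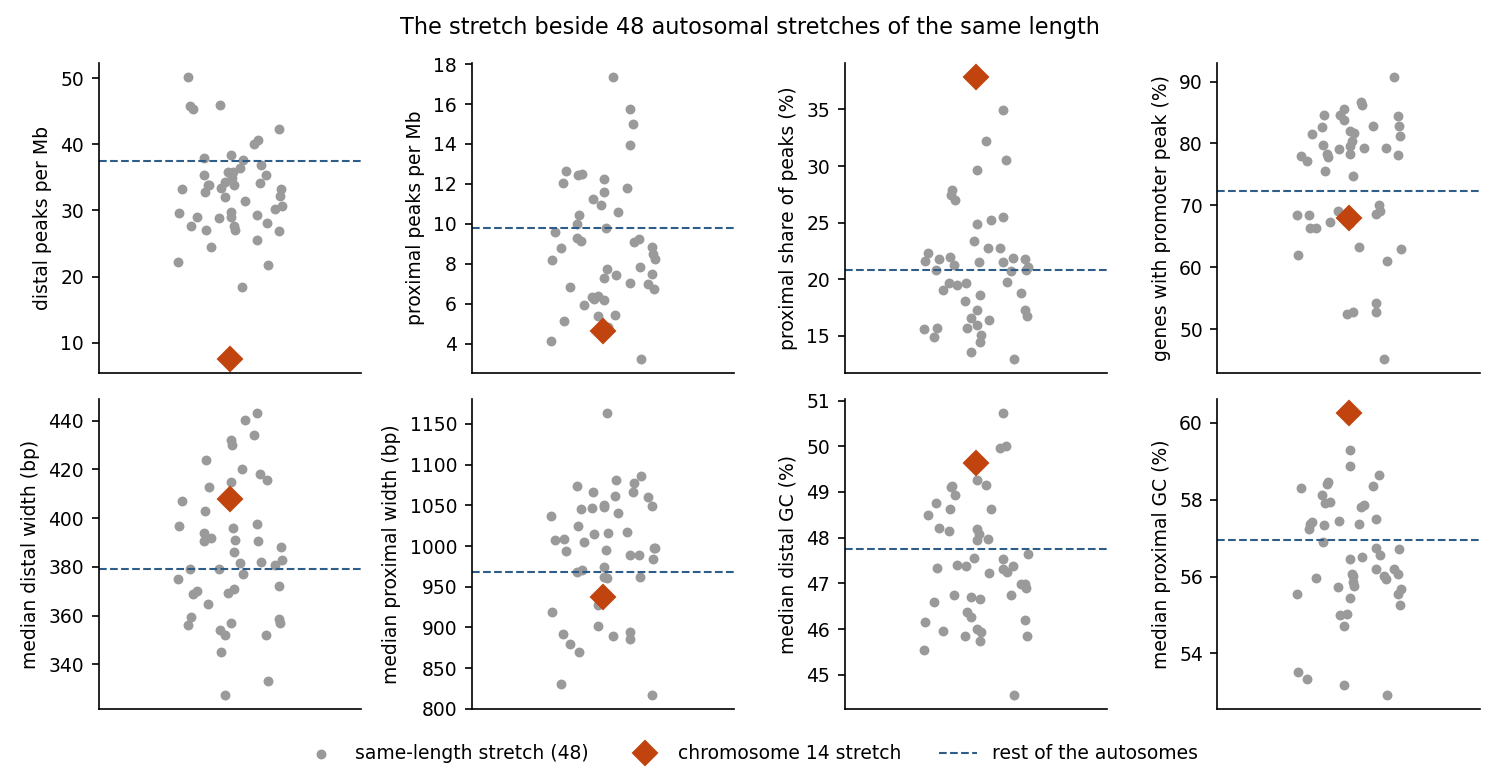
Densities, shares, median widths and median GC of the stretch (orange diamond), of 48 autosomal stretches of the same length (grey points) and of the rest of the autosomes (dashed line); the vertical axes do not start at 0. The stretch lies outside the grey points for distal peaks per Mb, for the proximal share and for proximal GC, and among them for the share of genes with a promoter peak and for both widths. The choice used the distal density, and the high proximal share follows from it.

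Genes with and without a promoter peak differed in CpG content. The CpG ratio, the number of CpGs in the 1000 bp around the outermost TSS of a gene over the number its C and G content would give, had a median of 0.71 in genes with a peak and 0.22 in genes without, against 0.69 and 0.16 in the rest. Genes with a peak were also longer than those without, with medians of 38.3 kb and 18.7 kb in the stretch. The same held in the rest, with 24.2 kb and 7.3 kb. Where the ratio was 0.6 or above, 93 of 99 genes had a peak, 93.9% (87.4 to 97.2), against 99.1% in the rest, with 2 of the same-length stretches lower and 46 higher. Where it lay between 0.4 and 0.6, a peak was found in 25 of 28, 89.3% (72.8 to 96.3), against 90.8%, and the 3 without were Adra1a, Gm4131 and Htr2a. Where it was under 0.4, a peak was found in 16 of 70, 22.9% (14.6 to 34.0), against 33.7%. For this last class 7 of the 48 same-length stretches lay lower and 41 higher. Among the 16 genes were Gata4, a transcription factor of heart and endoderm, Fdft1, an enzyme of sterol synthesis, and Cnmd, a cartilage gene whose peak of 199 bp was short. The ratio is taken at the outermost TSS, so a peak at another transcript of the gene, as for Gata4, can lie in sequence of another CpG content.

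**Figure D4:**
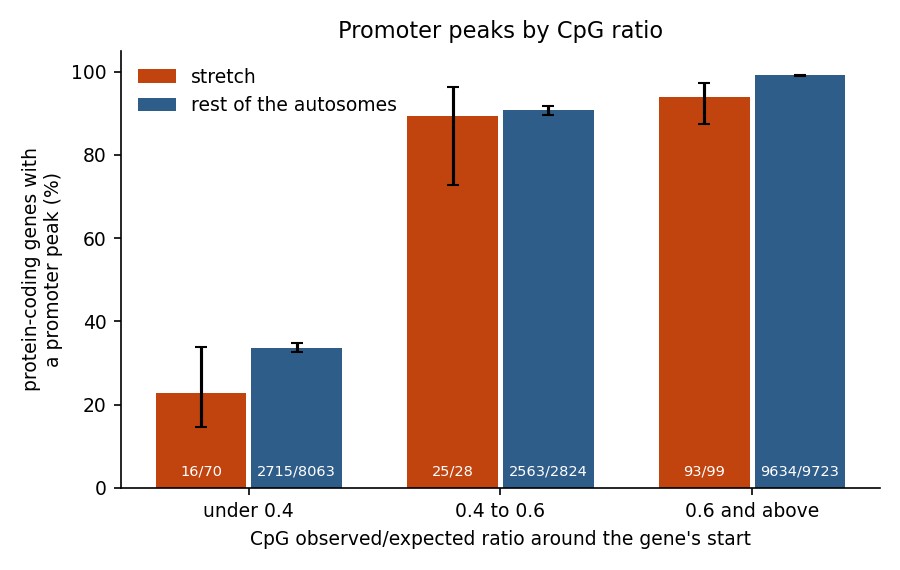
Share of protein-coding genes with a promoter peak in percent by CpG ratio, in the stretch (orange) and in the rest of the autosomes (blue), with 95% Wilson intervals and the counts at the foot of each bar. The shares rise from 22.9% to 93.9% in the stretch and from 33.7% to 99.1% in the rest.

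The 6 CpG-rich genes without a peak were Nefm, Slc25a37, Entpd4, Gm16867, Entpd4b and Loxl2. All but Nefm had no unique sequence around the TSS: each word of 75 bases examined in the 1000 bp there, at steps of 5 bases and of the length of the sequenced reads, occurred more than once in the genome, with a median of 2 copies. In the stretch 8 genes had fewer than 50% unique words around the TSS (Synb, Gm27179 and Gm21750 besides those 5), and none of them had a peak. All but Gm21750 start between 69285112 and 69609068, where Slc25a37 and Gm16867, Synb and Gm27179, and Entpd4 and Entpd4b form pairs with equal CpG ratios. In the rest of the autosomes 80 of 728 genes with fewer than 50% unique words had a peak. Among the CpG-rich ones of these it was 28 of 73. With these genes set aside, 93 of 94 CpG-rich genes of the stretch had a promoter peak (98.9%), against 99.5% of 9650, and Nefm, which encodes the medium neurofilament, was the exception. Among genes with a ratio under 0.4 the shares were then 23.9% of 67 and 35.9% of 7446. Over the whole stretch 93.3% of words were unique, against 92.5% in the rest.

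Genes grouped by function are given as counts, to be read beside the 68.0% of all genes of the stretch and the 72.4% of the rest of the autosomes with a promoter peak, and beside the 33.7% and 99.1% of genes in the rest with a CpG ratio under 0.4 and of 0.6 or above. No list was tested, and nothing here is particular to a list. A gene can have several promoter peaks, and the width given is that of the peak whose centre lies nearest to any of its TSSs. All 17 listed housekeeping genes that start in the stretch had a promoter peak, with widths from 659 bp at Mipep, a mitochondrial peptidase, to 2051 bp at Ints6, a subunit of the Integrator complex. So did all 7 listed genes of growth control and the cell cycle, among them Rb1, the retinoblastoma tumour suppressor, with a peak of 1674 bp, Kpna3, an importin, with 1490 bp, and Diaph3, a formin, and Trim13 had the shortest at 501 bp. Of 9 metabolic genes 8 had a peak, and the peak of Tdh, which encodes the threonine dehydrogenase on which mouse ES cells depend, was the shortest of these at 390 bp, while another at its outermost TSS measured 849 bp. The one without was Slc25a37, a mitochondrial iron importer, whose promoter sequence is not unique.

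All 4 protocadherin genes of the stretch had a promoter peak. That of Pcdh8 was the widest proximal peak of the stretch, 2717 bp at chr14:79769059-79771775, and those of Pcdh9, Pcdh17 and Pcdh20 measured 1297, 648 and 343 bp. The bases printed above for Pcdh9 and Pcdh17 overlap their peaks, whereas the peak of Pcdh20 lies within the gene. Of 13 developmental genes 9 had a peak, near the background of 72.4%, among them the transcription factor genes Gata4 (932 bp) and Sox7 (1189 bp) and the growth factor gene Fgf9 (730 bp, the nearest to a TSS of 5 proximal peaks from 436 to 1254 bp). Stc1, Nkx2-6, Loxl2 and Fgf17 had none. Of 13 neuronal genes 6 had a peak, beside the same background of 72.4%, including Nefl, which encodes the light neurofilament (1661 bp), the neurturin receptor gene Gfra2 (1836 bp) and Klhl1 (1025 bp). The 7 without a peak were Pnoc, Chrna2, Stmn4, Adra1a, Gnrh1, Nefm and Htr2a, which encode neuropeptide precursors, receptors and neuronal structural proteins, with a median CpG ratio of 0.30.

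Of 13 genes of blood, epithelia and secretion 4 had a peak, beside the 72.4% of all genes in the rest. Clu, Lcp1, Tnfsf11 and Elf1 had one, and the 9 without included Sftpc, a surfactant protein gene of the lung, Adam7, Adam28 and Olfm4, and had CpG ratios from 0.065 to 0.351, in the class where 33.7% of genes in the rest had a peak. In 4 gene families, picked after their values were seen, no member had a promoter peak: 5 beta-defensin genes, 4 Phf11 genes, 3 Prss genes and 4 Adam genes.

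The proximal peaks of the stretch were rich in GC. Their median GC content was 60.2% (58.7 to 61.4), against 56.9% in the rest and 52.9% to 59.3% in the same-length stretches, so that all 48 lay lower. Proximal peaks near the TSS of a protein-coding gene were more common in the stretch, 167 of 184 (90.8%), than in the rest (81.3%). Within those peaks the median was 60.2% against 58.3%, and again all 48 stretches lay lower, up to 59.9%. Distal peaks had a median GC of 49.6% (48.6 to 50.6), against 47.7%, with 45 stretches lower and 3 higher. The sequence of the stretch itself had less GC than the rest, 40.6% against 42.0%. The sequence within 50 kb of its distal peaks did not, with a median of 44.2% against 43.3%, and 37 stretches lower and 11 higher. Relative to the 50 kb on each side, distal peaks stood 5.70 percentage points higher and proximal peaks 15.7, against 4.11 and 10.9 in the rest, and both values lay above all 48 stretches.

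Widths differed little. Distal peaks had a median of 408 bp (373 to 434), against 379 bp in the rest, with 37 stretches lower and 11 higher, and the difference of 29 bp fell to 12 bp when peaks under 200 bp were left out. Distal peaks under 200 bp made up 3.31% of the 302, against 5.40% in the rest. This was less than in any of the 48 stretches, but those held at least 733 distal peaks each. Only 14 peaks of the stretch, distal and proximal together, were under 200 bp, so the share is uncertain. Long distal peaks were no more common, and the 90th percentile was 851 bp against 911 bp. Proximal peaks had a median of 937 bp (828 to 1020) against 968 bp, with 12 stretches lower and 36 higher, and this difference of 31 bp turned to 64 bp wider in the stretch when proximal meant within 2500 bp. At protein-coding TSSs the gap was larger, with medians of 953 bp in the stretch and 1069 bp in the rest. The widest distal peaks were an intergenic one of 1613 bp at chr14:86382654-86384266, of which 75.5% was repeat and which had Diaph3 as its nearest gene, and a pair of 1604 and 1523 bp in introns at chr14:65625953-65627556 and chr14:65629522-65631044, near Nuggc.

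**Figure D5:**
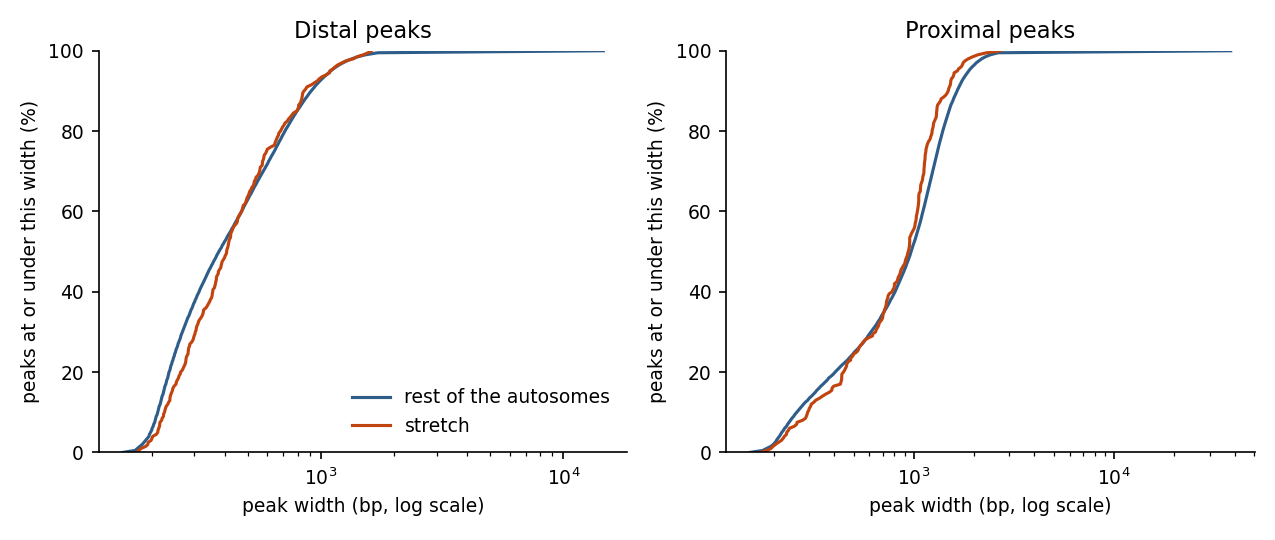
Cumulative share of peaks in percent by width in bp on a log scale, for distal (left) and proximal (right) peaks, in the stretch (orange) and the rest of the autosomes (blue). The distal curve of the stretch starts to the right of the other and meets it above the median of 408 bp, and the proximal curve of the stretch lies to the left among the widest peaks.

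By annotation and distance, the distal peaks lay as follows. Introns held 41.7% of them against 44.4% in the rest, intergenic sequence 51.7% against 49.4%, and exons 6.62% against 6.17%. The median distance to a TSS was 13639 bp, against 13408.5 bp, and 14.6% lay beyond 50 kb, against 16.3%. Repeats covered a median of 10.9% of a distal peak, against 12.9%, with 4 of the same-length stretches lower and 44 higher.

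Motifs of the stem cell factors were searched in distal peaks on both strands. The OCT, OCT4::SOX2 and CTCF shares were near those of the rest, and the SOX, KLF and ESRRB shares were higher, each with an interval that includes the share in the rest. The octamer ATTTGCAT, bound by OCT4, was present in 9 of 302 (2.98%, 1.58 to 5.57), against 3.03%. The composite OCT4::SOX2 motif, with up to 2 mismatches, was present in 8 (2.65%, 1.35 to 5.14), against 2.6%. The CTCF motif, with up to 1 mismatch, was present in 44 (14.6%, 11.0 to 19), against 16.1%. The SOX words CCTTTGT and CCATTGT were present in 76 (25.2%, 20.6 to 30.4), against 21.6%, with 46 of the same-length stretches lower. The KLF words GGGCGTGGC, GGGTGTGGC, GGGCGGGGC and GGGTGGGGC were present in 33 (10.9%, 7.89 to 14.9), against 8.91%, and this difference of 2.02 percentage points was 0.027 when the central 200 bp of each peak were searched. The ESRRB word TCAAGGTCA was present in 14 (4.64%, 2.78 to 7.63), against 3.09%, and this share lay above the range of 2.06% to 4.11% over the same-length stretches. Some composite matches hold an octamer or a SOX word, so these counts overlap.

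The last 5 Mb held 11 distal and 3 proximal peaks. Only 3 protein-coding genes start there. Pcdh9 and Klhl1, which encodes an actin-binding protein of neurons, had a promoter peak, at chr14:93890374-93891670 and chr14:96517867-96518891, and 4921530L21Rik had none. The distal peaks were 220 to 1004 bp wide. The most GC-rich, at chr14:93049764-93049983, was 62.3% GC and wholly repeat. Of the 11, 3 held a SOX word and 1, at chr14:95833608-95834292 and printed above, held the CTCF motif, and none of the 11 held a match to the octamer, the composite, the KLF or the ESRRB motif.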

How the data were processed

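ATAC-seq was performed in 54 samples of 24 groups. Per the labels and the study's methods, the authors aligned 75-nt paired-end reads to GRCm38 with STAR 2.6.1c, removed duplicates with Picard, dropped reads outside the 19 autosomes and the sex chromosomes, ran MACS2 2.1.1.20160309 and merged them with BEDTools. Whether peaks were called per library or on pooled libraries is not given in the sources used here. The deposited list holds positions in bp (chromosome, start and end, 3 columns), with no count, score or signal. Numbers and widths of merged peaks can grow with depth, which is unknown. Peaks above 5 kb, which the authors describe as removed, numbered 11 in the list and 0 in the stretch. The authors also describe removing peaks that overlapped Input peaks or blacklisted regions. Whether this was done before the list was made is not known from the positions.

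Sequence came from GRCm38.p6, whose repeats are soft-masked, and genes from GENCODE M21. Positions are 1-based. A gene had a promoter peak when a peak centre lay within 1 kb of a TSS of any of its transcripts. GC, repeat share, motif matches and the uniqueness of words of 75 bases (every 2 kb in the genome and every 5 bases around TSSs) were computed with Python 3.11.15, numpy 2.4.6, pandas 2.3.3 and scipy 1.17.1, and plots with matplotlib 3.10.9. The code was tested on simulated data. With 1 stretch in 1 list n is 1, so no test was run. Named genes were those of 7 lists by function that start in the stretch, those in its last 5 Mb, those at the 3 longest intervals and those nearest to the 3 widest distal peaks, with 5 markers of ES cells. Other genes named beside a count (such as Cnmd, Gm4131 and Synb), a printed sequence or a gene family were chosen after their values were seen. The members and the lists were chosen with earlier results of these data known. Alternatives changed the limits of the stretch, the TSS distance, the width filter, the rest of the autosomes, the bins and the motif mismatches.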

Additional observations from a re-analysis of the deposited data

How the results depend on the processing

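Of 117 alternative values for 17 results, 116 moved by less than the counting error of the value. Of these, 4 could not move, since the OCT, SOX, KLF and ESRRB motifs already allowed no mismatch. The alternatives that left out peaks above 5 kb could hardly move, since the list held 11 such peaks and the stretch 0. Another 4 of the 116 crossed 0, all for the OCT and OCT4::SOX2 motif shares, whose differences from the rest were close to 0. The one that moved further was the difference in median proximal width between the stretch and the rest, which was -31 bp as reported and 64 bp when proximal meant within 2500 bp of a TSS. The cause was not tested. That difference was -76 bp with 500 bp. Among the values within counting error, the difference in the share of genes with a promoter peak went from -4.33 to -2.57 percentage points with both limits moved inward by 2 Mb, the difference between stretch and rest in the gap in CpG ratio between genes with and without a peak from -0.043 to -0.075, and that in the CTCF share from -1.52 to -0.64 with 2500 bp. No paired analysis was possible because the deposited list holds no values per sample. For the same reason no replicate could be left out. The list gives no depth. A region without a peak may be closed, may have had too few reads or may have held a peak that was filtered out, and these cannot be told apart here. The intervals cover counting error only, and the 48 same-length stretches are a description of other autosomal sequence, not replicates of the stretch.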

Other observations

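The shares of non-coding genes with a peak at a TSS are given here as a description, with no test. A peak lay within 1 kb of a TSS for 13 of 84 lincRNA genes (15.5%, 9.27 to 24.7), against 29.2% in the rest. For antisense genes the count was 7 of 34 (20.6%, 10.4 to 36.8), against 44.4%, and for processed pseudogenes 4 of 141 (2.84%, 1.11 to 7.07), against 10.8%. None of 24 snoRNA genes had one, against 18.3%, and a count of 0 allows up to 3 of 24, or 12.5%, for counting error. For miRNA genes the count was 4 of 22 (18.2%, 7.31 to 38.5), against 20.5%. The depth of the libraries is unknown, and its part in these shares was not tested.

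The part of chromosome 14 beyond the stretch, 27.1 Mb long, held 93.0 distal peaks per Mb with a median width of 301 bp, against 7.61 per Mb and 408 bp in the stretch and 26.5 per Mb and 406 bp before it. Proximal peaks there had a median width of 620.5 bp, against 937 bp in the stretch. Of its 69 protein-coding genes 62 had a promoter peak (89.9%).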
